A study of Mus musculus with 10 samples.

Results

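The organic ion and drug transporters measured here are the mouse genes whose symbols in the array platform's annotation start with Slc22a, Slco, Slc47a, Abcb, Abcc or Abcg. Each was taken from array rows that name a single gene, which gave 66 genes, each with 1 row, of 30142 genes in all. There were 24 Slc22a, 15 Slco, 2 Slc47a, 9 Abcb, 10 Abcc and 6 Abcg genes. Among them, RefSeq lists Slc22a13b (Slc22a13b-ps on the platform) as a transcribed pseudogene and Slco6b1 as a long non-coding RNA. The rule uses symbols alone, but it was proposed with earlier results of these data known.

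Whole kidneys of 5 mice with a tubule-specific Lkb1 knockout and of 5 control mice, all aged 5 weeks, were each measured on 1 Affymetrix whole-transcript array. The knockouts (Lkb1 flox/flox crossed to KspCre) carried a Cre driven by the Cdh16 promoter, which is active in kidney tubules. The controls were littermates that had 1 (Lkb1 flox/+) or 2 (Lkb1 flox/flox) floxed alleles and no KspCre. Both groups thus carried floxed Lkb1, and Cre itself cannot be told apart from the loss of Lkb1. The titles call the first group a knockdown, whereas the protocol describes a Cre knockout, and the design text speaks of MDCK cells, a dog kidney line, although all 10 samples are labelled mouse kidney. C57Bl/6N is the labelled strain, but the floxed line is given as of mixed background, and no label gives a sex. Because Cre acts only in cells that express Cdh16, whole-kidney RNA mixes deleted tubule cells with all other cells. In such RNA, fewer cells of a type and less RNA per cell cannot be told apart.

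The proximal tubule clears organic acids, organic bases, drugs and drug conjugates from blood into urine. Carriers of the SLC22 family take organic anions and cations up from the blood or exchange them across the brush border, MATE carriers of the SLC47 family release organic cations in exchange for protons, and organic anion transporting polypeptides of the SLCO family move larger amphipathic anions such as steroid conjugates, thyroid hormone and prostaglandins. ABC transporters of the ABCB, ABCC and ABCG families use ATP to pump drugs, conjugates, lipids or sterols out of cells, while some members serve mitochondria or lysosomes or regulate a potassium channel.

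Values are the authors' log2 expression values made by RMA (robust multi-array average), and a difference is knockout minus control on that log2 scale. Stk11, which encodes Lkb1, measured 9.12, 9.21, 9.07, 9.21 and 9.31 in knockout kidneys 1 to 5, against 9.43, 9.40, 9.48, 9.46 and 9.40 in control kidneys 1 to 5. All knockouts lay below all controls, with a log2 difference of -0.25 (SE 0.05), a mean level 84.1% of the control mean and adjusted p = 0.00749. An exact two-sided permutation test gave p = 0.00794, the smallest that 5 against 5 allows. All 16 measured proximal tubule markers lay above the median of the array's negative control probe sets. The medians of the 10 arrays ran between 5.345 and 5.418, and their correlations between 0.992 and 0.998.

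Across the 66 genes, 3 were higher and 7 lower in the knockout at an adjusted p under 0.05 (limma, Benjamini-Hochberg over all 30142 genes), and 56 did not pass. Over all genes, 8.03% passed the same test, 5.35% as increases and 2.67% as decreases. The increases were thus 4.55% of the transporters, close to the share over all genes, and the decreases 10.6%. The higher genes were Abcc3, Slco2b1 and Slco2a1. The lower genes were Slc22a22, Slc22a4, Slc22a12, Slc47a1, Abcb8, Abcb10 and Abcc1. The groups did not overlap for 7 of the 66 genes, 2 higher and 5 lower, where over all genes 8.57% did not, 5.07% as higher and 3.5% as lower. The lower ones were Slc22a22, Slc22a4, Slc22a12, Slc47a1 and Abcb9, of which Abcb9 did not pass the test. At an unadjusted p under 0.05, 3 transporters were higher and 15 lower, beside 10.9% and 12.0% of all genes.

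The median difference over the 66 genes was -0.10 on the log2 scale, and 54 lay below 0, where over all genes the median was -0.03 and 61.8% lay below 0. After quantile normalization 53 lay below 0. By family, the median difference was -0.12 for Slc22a, -0.18 for Slc47a, -0.19 for Abcb, -0.10 for Abcc and -0.07 for Abcg. That of Slco was -0.02, but 0.02 after quantile normalization. Below 0 were 23 of 24 Slc22a, both Slc47a, all 9 Abcb, 7 of 10 Abcc, 4 of 6 Abcg and 9 of 15 Slco genes, and after quantile normalization 23, 2, 8, 8, 5 and 7 in the same order of families. Counts past the threshold, as higher and lower genes, were 0 and 3 in Slc22a, 0 and 1 in Slc47a, 0 and 2 in Abcb, 1 and 1 in Abcc, 0 and 0 in Abcg, and 2 and 0 in Slco. The mean over all 10 kidneys was above the median of the negative controls (5.228) for 53 genes. The other 13, at or below it, were Abcb4, Abcb5, Abcb11, Abcc12, Abcg3, Slc22a16, Slco1a5, Slco1b2, Slco1c1, Slco5a1, Slco6b1, Slco6c1 and Slco6d1. Those 13 spanned differences between -0.11 and 0.06, none passed, and no fold is given for them.

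**Figure D1:**
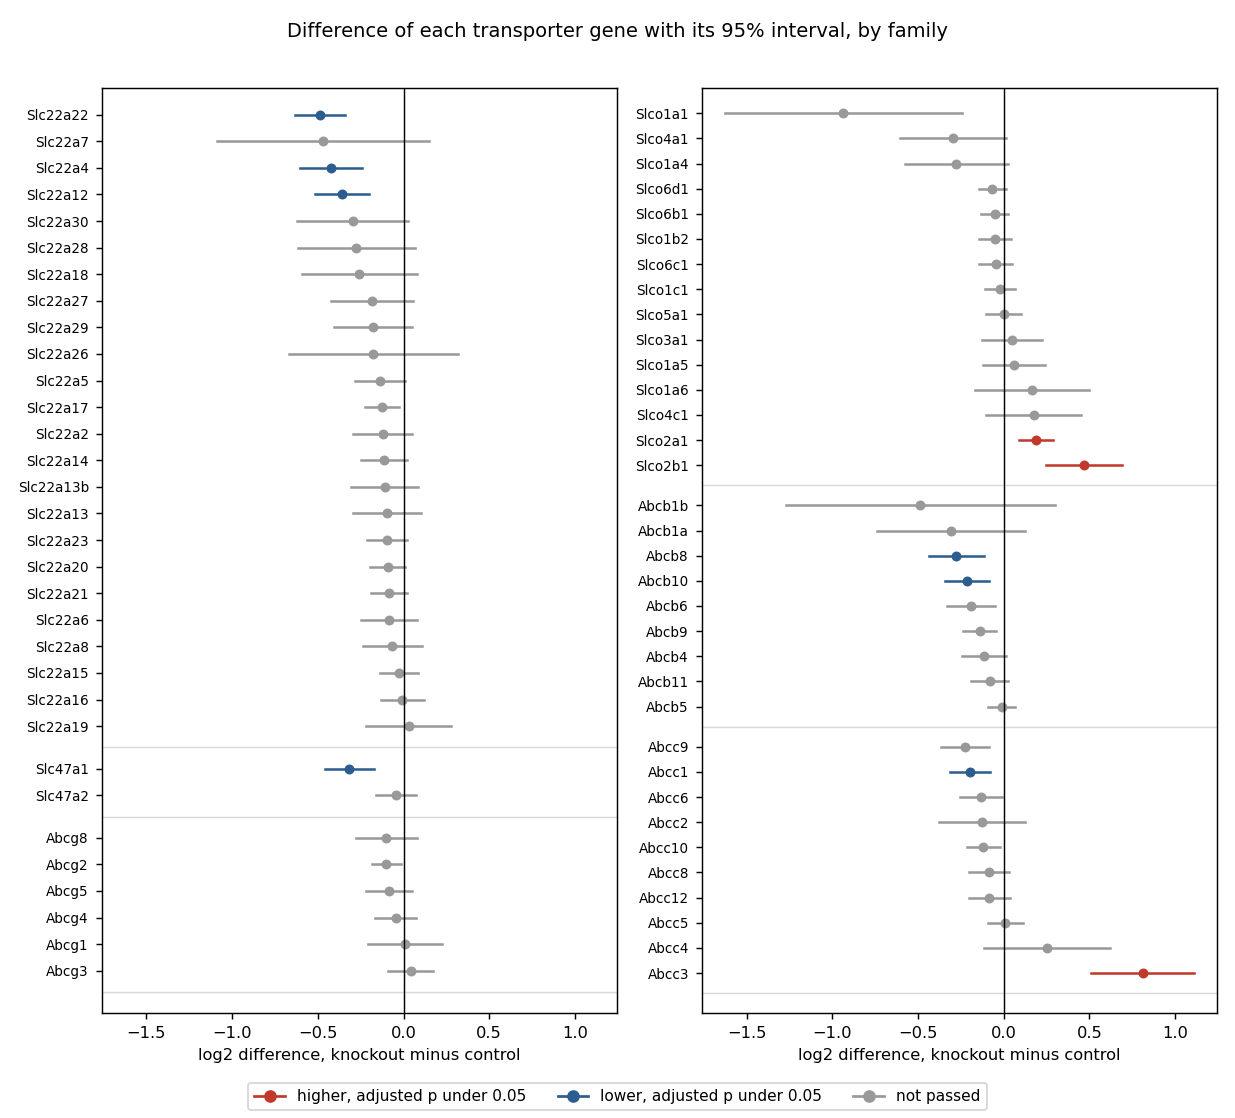
The log2 difference (knockout minus control, horizontal axis) of each of the 66 transporter genes with its 95% interval, in blocks by family. Red marks the 3 genes that passed as higher, blue the 7 that passed as lower and grey the 56 that did not pass, and most points lie left of 0.

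Among Slc22a genes the largest fall past the threshold was that of Slc22a22, which encodes a prostaglandin-specific organic anion carrier of the mouse proximal tubule (chr15:57243767-57477625, GRCm38). Its values were 9.57, 9.47, 9.26, 9.49 and 9.52 in knockout kidneys 1 to 5, against 10.03, 10.11, 9.82, 9.87 and 9.92 in control kidneys 1 to 5. The groups were separated by a gap wider than either group's SD of 0.12. The log2 difference was -0.49 (SE 0.07, adjusted p = 0.00124), and the knockout mean was 71.3% of the control mean (95% interval 64.5% to 79.0%).

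Slc22a4 encodes OCTN1, a carrier of ergothioneine and organic cations (chr11:53983115-54030040). It measured 9.33, 9.28, 9.07, 9.44 and 9.62 in the knockouts, against 9.88, 9.67, 9.82, 9.73 and 9.76 in the controls. Knockout 5 came nearest to the controls but stayed below all of them. Slc22a4 differed by -0.42 on the log2 scale (SE 0.08, adjusted p = 0.00900), with the knockout at 74.5% of the control level. Its neighbours on chromosome 11, Slc22a5, the carnitine carrier OCTN2, and Slc22a21 had log2 differences of -0.14 and -0.09 and did not pass (adjusted p = 0.243 and 0.317).

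Slc22a12 encodes URAT1, the urate and organic anion exchanger of the proximal tubule brush border (chr19:6535854-6543070). The 5 knockouts measured 11.98, 12.01, 11.72, 11.95 and 12.16, against 12.45, 12.24, 12.27, 12.32 and 12.36 in the controls. Every knockout lay below every control. This gave a log2 difference of -0.36 (SE 0.07, adjusted p = 0.00953), with the knockout at 77.9% of the control level.

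Slc47a1 encodes MATE1, which releases organic cations across the brush border (chr11:61343400-61378842). It measured 11.86, 11.79, 11.62, 11.91 and 11.99 in the knockouts, against 12.29, 12.13, 12.12, 12.09 and 12.13 in the controls. The groups did not overlap, although control 1 stood above the other controls. Slc47a1 differed by -0.32 on the log2 scale (SE 0.07, adjusted p = 0.0118), with the knockout at 80.3% of the control level. Its neighbour Slc47a2, the second MATE gene, had a log2 difference of -0.04 (adjusted p = 0.658).

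The falls of Slc22a22, Slc22a4, Slc22a12 and Slc47a1 passed the threshold under each of the 19 alternatives run, which left out each kidney in turn or changed the scaling, the filter, the variance model, the weights, the rows per gene, the symbols or the block. Some markers of the proximal tubule also fell. Of 16 measured markers, 5 fell and none rose, among them Slc7a13 (-0.54), Slc5a2 (-0.46), Slc13a3 (-0.42) and Gatm (-0.25) as log2 differences. The other 11 did not pass, and 4 of the 16 differences lay above 0 (up to 0.20). The median of the 16 log2 differences was -0.11. The mean of the markers, relative to the control mean, lay between -0.26 and -0.07 in the knockouts, against -0.06 to 0.05 in the controls. Markers of other tubule segments fell too. Of 8 thick limb and distal tubule markers 6 fell and 1 rose (median -0.41), and their mean was -0.45 to -0.27 in the knockouts, against -0.06 to 0.08 in the controls. Of 10 collecting duct markers 4 fell and 2 rose (median -0.19). The part of these cells in the lower transporter values was not tested.

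**Figure D2:**
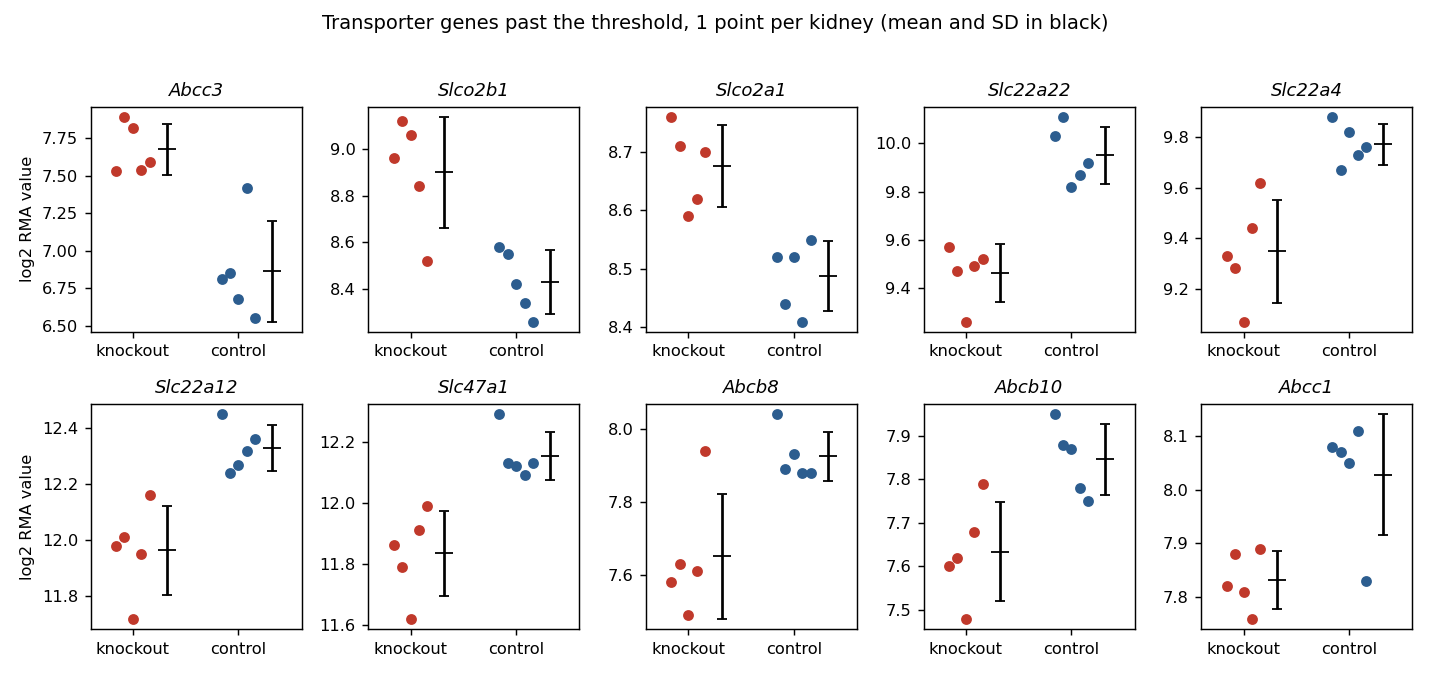
The log2 RMA value (vertical axis) of the 10 transporter genes that passed the test, with 1 point per kidney in knockout and control groups of 5 and the mean with its SD in black. Abcc3, Slco2a1, Slc22a22, Slc22a4, Slc22a12 and Slc47a1 show no overlap between the groups, while Slco2b1, Abcb8, Abcb10 and Abcc1 overlap.

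Slc22a6, Slc22a8 and Slc22a2, carriers that take organic anions and cations up from the blood, did not pass. Slc22a6 (OAT1) ranged over 11.52 to 11.91 in the knockouts, against 11.74 to 11.99 in the controls, with a log2 difference of -0.08 (adjusted p = 0.535). For Slc22a8 (OAT3) the range was 12.08 to 12.44 in the knockouts, against 12.09 to 12.42 in the controls, and the log2 difference was -0.07 (adjusted p = 0.656). Slc22a2 (OCT2), the main basolateral organic cation carrier, had a log2 difference of -0.12 (adjusted p = 0.374). The 95% intervals of these 3 genes put the knockout at 84.1% to 106%, 84.8% to 108% and 81.7% to 103% of the control level. The estimate for Slc22a12 (77.9%) lay below all 3 intervals, but its own 95% interval, 69.9% to 86.8%, overlapped them. Whether these genes fell less than Slc22a12 was not tested. Slco4c1, a basolateral organic anion carrier, had a log2 difference of 0.18 (adjusted p = 0.433).

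The role lists were set by hand, and the side of the membrane was not measured here. Over all genes, 5.35% passed as higher and 2.67% as lower. The 4 genes listed as basolateral organic anion carriers (Slc22a6, Slc22a7, Slc22a8 and Slco4c1) had no call and a median log2 difference of -0.08. Of 12 urate and other organic anion carriers, 2 fell (Slc22a12 and Slc22a22), none rose and the median was -0.18. Of 7 measured organic cation and carnitine carriers, 2 fell (Slc22a4 and Slc47a1), none rose and the median was -0.12. The 6 Slc22a genes with other or unsettled substrates had no call and a median of -0.10. They include Slc22a17, described as a receptor for lipocalin 2, with a log2 difference of -0.13 (adjusted p = 0.114). A list of 13 transporters known to differ between the sexes in rodents had 1 higher gene (Abcc3), 1 lower gene (Slc22a12) and a median of -0.28. Slc22a5, Slc22a7, Slc22a17, Slc22a19, Slc22a21, Slc22a26 to Slc22a30, Slco1a1, Slco1a4, Abcb1a and Abcb9 are described because their values or positions drew attention, after those values were seen.

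On chromosome 19, 8 members lie within 955 kb (chr19:7673075-8628299): Slc22a19, Slc22a26, Slc22a27, Slc22a28, Slc22a29, Slc22a30, Slc22a8 and Slc22a6. None passed the test, and 7 of the 8 differences were below 0. The promoter windows of Slc22a28 (chr19:8131933-8132232, minus strand) and Slc22a30 (chr19:8405056-8405355, minus strand), 250 bases before to 50 after the start, are shown 5′ to 3′ because they are the closest pair among the 28 pairs of windows in this stretch. Of 294 aligned bases 288 are identical and 6 differ, and capitals mark the 12 bases of each window without an identical partner.
Slc22a28: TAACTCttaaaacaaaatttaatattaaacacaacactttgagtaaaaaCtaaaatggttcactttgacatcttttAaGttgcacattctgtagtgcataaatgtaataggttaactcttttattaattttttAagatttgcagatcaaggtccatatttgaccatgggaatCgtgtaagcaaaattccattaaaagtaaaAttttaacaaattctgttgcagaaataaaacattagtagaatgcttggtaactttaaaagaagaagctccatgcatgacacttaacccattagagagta
Slc22a30: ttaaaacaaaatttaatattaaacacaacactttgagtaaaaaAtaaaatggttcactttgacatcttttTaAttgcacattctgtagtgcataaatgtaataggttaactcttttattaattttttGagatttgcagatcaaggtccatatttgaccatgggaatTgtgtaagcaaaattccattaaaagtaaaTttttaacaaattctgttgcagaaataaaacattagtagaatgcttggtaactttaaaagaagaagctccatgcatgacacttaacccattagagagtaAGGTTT
The next closest pair, Slc22a28 and Slc22a29, shared 213 of 263 aligned bases. Sequences are from RefSeq (GRCm38.p6).

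Slc22a28 measured 10.83, 10.60, 10.27, 10.75 and 10.43 in the knockouts, against 11.19, 11.13, 10.79, 10.27 and 10.87 in the controls. For Slc22a30 the values ran between 9.82 and 10.36 in the knockouts, against 9.89 to 10.72 in the controls. The kidneys of each group stood in the same order for both genes, with knockout 3 and control 4 lowest. Near copies can share signal between array rows, so each value is uncertain. The same can apply to the pairs Abcb1a and Abcb1b and Slc22a13 and Slc22a13b. No transcript or probe sequences were compared, so such sharing was not measured for any of these pairs. The log2 differences were -0.28 (SE 0.16, adjusted p = 0.322) for Slc22a28 and -0.30 (SE 0.15, adjusted p = 0.256) for Slc22a30.

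The promoter windows of the uptake carriers Slc22a6 (chr19:8617746-8618045, plus strand) and Slc22a8 (chr19:8592932-8593231, plus strand), at the end of the same stretch, are shown with a match in capitals to the HNF1 half-site GTTAAT. The Slc22a8 window belongs to a transcript start inside the annotated span of the gene (chr19:8591254-8611835), not to its first base. HNF1 is a transcription factor of liver and kidney epithelium.
Slc22a6: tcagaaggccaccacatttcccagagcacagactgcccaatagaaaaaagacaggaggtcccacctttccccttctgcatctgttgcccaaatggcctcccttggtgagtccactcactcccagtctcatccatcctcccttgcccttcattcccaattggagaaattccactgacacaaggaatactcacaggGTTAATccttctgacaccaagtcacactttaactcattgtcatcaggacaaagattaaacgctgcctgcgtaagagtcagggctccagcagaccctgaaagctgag
Slc22a8: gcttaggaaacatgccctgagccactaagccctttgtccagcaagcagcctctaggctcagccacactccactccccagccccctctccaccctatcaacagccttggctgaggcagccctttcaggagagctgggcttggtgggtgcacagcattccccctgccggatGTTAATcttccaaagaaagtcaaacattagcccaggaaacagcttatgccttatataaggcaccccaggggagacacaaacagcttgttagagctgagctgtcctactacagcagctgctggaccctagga
GTTAAT or its reverse complement ATTAAC was found in 4 of the 63 windows of members (6.3%), against 7.1% of all 32851 windows. The nuclear receptor half-site AGGTCA or TGACCT was found in 12 members' windows (19%), against 16.3% of all. The half-site TGACG or CGTCA of the cyclic AMP response element was in 9 (14.3%), against 20.8% of all. All were searched on both strands, the 3 motifs do not contain one another, and a match is a description of these letters only. Windows were at hand for 53 of the 66 members.

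Control kidney 4 was the lowest control for 7 of the 8 genes in the chromosome 19 stretch, all but Slc22a8. Among the 6 genes other than Slc22a6 and Slc22a8, controls 1 and 2 were the highest 2 controls for all 6, and knockout 3 was the lowest knockout for 4. The widest spread was that of Slc22a26, with 8.19, 8.15, 7.96, 7.94 and 7.82 in the knockouts, against 8.66, 8.61, 8.17, 7.17 and 8.32 in the controls. Control 4 lay below every knockout, and the other 4 controls lay above or within the upper end of the knockouts. The log2 difference of Slc22a26 was -0.18 (SE 0.23, adjusted p = 0.676), and it was -0.43 (adjusted p = 0.0354) without control 4. Without that kidney Slc22a30 also passed (-0.43, adjusted p = 0.0484), and Slc22a28 did not (-0.42, adjusted p = 0.0589). Control 4 was picked out after these values were seen. Fits without it, here and below, show its weight and are no support for a difference. The same holds for passes gained by leaving out another kidney.

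The same kidney stood at an end of the controls for carriers on other chromosomes. Slc22a7 (OAT2), an anion carrier on chromosome 17, measured 9.79, 9.78, 9.33, 9.89 and 9.32 in the knockouts, against 10.54, 10.70, 10.33, 8.86 and 10.04 in the controls. All knockouts lay below 4 controls and above control 4. Its log2 difference was -0.47 (SE 0.28, adjusted p = 0.348), and -0.78 (adjusted p = 0.0115) without control 4.

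Slco1a1 encodes an organic anion carrier that takes up steroid and bile acid conjugates. It measured 8.82, 7.61, 7.37, 7.59 and 8.5 in the knockouts, against 9.15, 9.58, 9.10, 7.95 and 8.78 in the controls. Knockouts 1 and 5 lay among the controls, and control 4 lay among the knockouts. This was the largest difference below 0 among the 66 genes, at -0.93 on the log2 scale (SE 0.32), but it did not pass (adjusted p = 0.0952). It passed without control 4 (-1.17, adjusted p = 0.0298) and also without knockout 1 (-1.15, adjusted p = 0.0452). Its neighbour Slco1a4 had a log2 difference of -0.28 (adjusted p = 0.254), and -0.41 (adjusted p = 0.0328) without control 4.

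Control 4 was the highest control for Abcc4 (MRP4), an efflux pump for organic anions and cyclic nucleotides. Abcc4 measured 9.88, 10.12, 10.19, 9.99 and 10.40 in the knockouts, against 9.54, 9.59, 9.65, 10.55 and 9.97 in the controls. Its log2 difference was 0.25 (SE 0.17, adjusted p = 0.396), and 0.43 (adjusted p = 0.0409) without control 4. Over the 53 transporters above the median of the negative controls, control 4 was the lowest control for 21 and the highest for 8, and knockout 3 was the lowest knockout for 27. Other kidneys also stood at an end often. Control 2 was the lowest control for 16, control 1 the highest control for 19 and knockout 5 the highest knockout for 23. The shares over all genes were not measured, so no trait of the transporters is read from these counts. Control 4 also had the highest mean among the controls for urothelium markers (0.46, against -0.52 to 0.15 in the other controls) and adipocyte markers (0.37, against -0.29 to 0.09), relative to the control mean. It was the highest control for collecting duct (0.12) and fibroblast markers (0.11) too. For proximal tubule (-0.06), macrophage (-0.13) and tubular injury markers (-0.13) it was the lowest control. The part of those cells in its values was not tested.

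**Figure D3:**
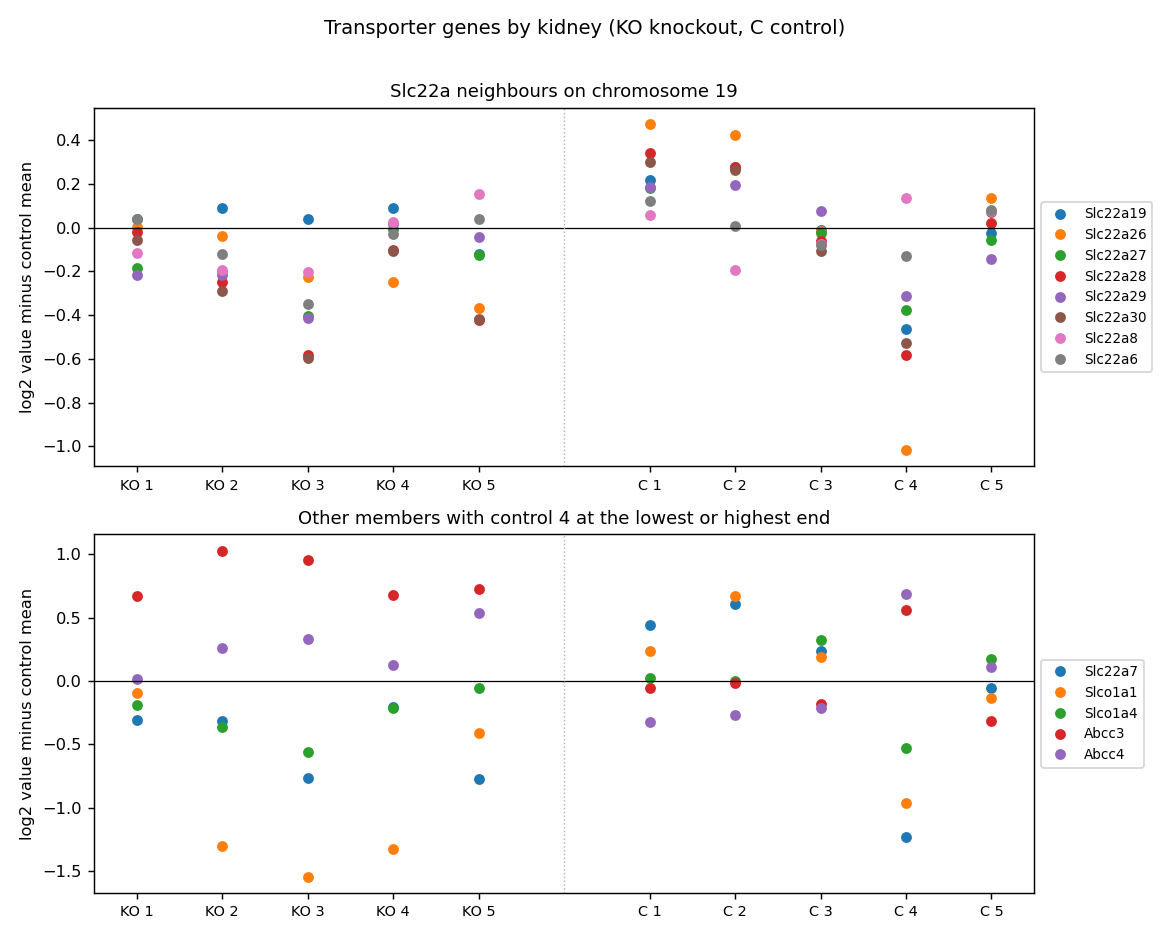
The log2 value minus the control mean (vertical axis) in each knockout (KO) and control (C) kidney, for 8 Slc22a neighbours on chromosome 19 (top) and 5 other transporters (bottom). In control 4 the points of Slc22a26, Slc22a7, Slco1a1 and Slco1a4 lie far below those of the other controls, and those of Abcc3 and Abcc4 lie above.

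Of the 15 Slco genes, 2 rose. Slco2b1 encodes OATP2B1, a widely expressed carrier of steroid sulfates and drugs (chr7:99657804-99711340). It measured 8.96, 9.12, 9.06, 8.84 and 8.52 in the knockouts, against 8.58, 8.55, 8.42, 8.34 and 8.26 in the controls. Of the knockouts, 4 lay above all controls and knockout 5 lay among them. The log2 difference was 0.47 (SE 0.10, adjusted p = 0.0147), with the knockout at 138% of the control level (95% interval 119% to 162%), and it passed under each of the 19 alternatives.

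Slco2a1 encodes the prostaglandin transporter PGT (chr9:103007061-103096002). It measured 8.76, 8.71, 8.59, 8.62 and 8.70 in the knockouts, against 8.52, 8.44, 8.52, 8.41 and 8.55 in the controls. The groups did not overlap, although the step between the lowest knockout and the highest control was small. Slco2a1 differed by 0.19 on the log2 scale (SE 0.05, adjusted p = 0.0243), with the knockout at 114% of the control level. The call was lost after quantile normalization and without control 2, control 4, knockout 1 or knockout 2, with the adjusted p between 0.0174 and 0.0677 over the 19 alternatives.

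Macrophage markers rose in the same kidneys. All 11 measured ones passed, with a median log2 difference of 1.03, among them Lyz2 (2.38), Mpeg1 (1.47), Mrc1 (1.41) and Ctss (1.31). Their mean relative to the control mean was 1.31, 1.22, 1.41, 0.83 and 0.60 in knockouts 1 to 5, against -0.13 to 0.13 in the controls. Knockout 5 was the lowest knockout for both Slco2b1 and the macrophage mean. All 7 measured fibroblast markers also rose (median 1.28), as did 8 of 9 markers of tubular injury (median 0.95), whereas none of 8 endothelial markers passed. Relative to the control mean, knockout 5 was also the lowest knockout for the means of injury markers (0.83) and endothelial markers (-0.17). For fibroblast markers it was at 0.79, beside 0.78 in knockout 4, the lowest. The shared low point was thus not particular to macrophage markers. The part of these cells in the higher transporter values was not tested.

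**Figure D4:**
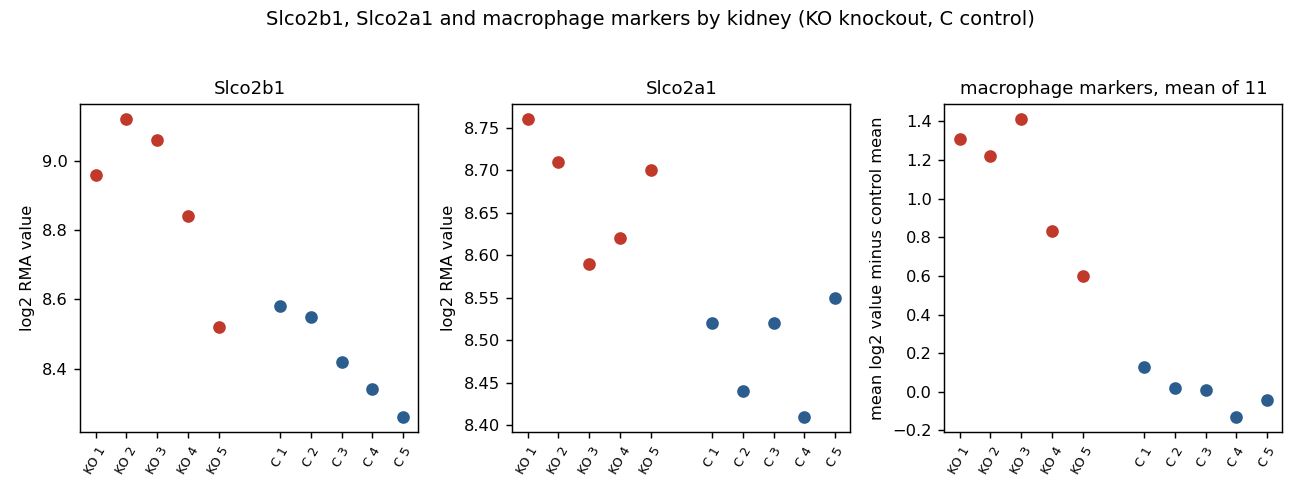
The log2 RMA value of Slco2b1 (left) and Slco2a1 (middle), and the mean of 11 macrophage markers relative to the control mean (right), in each knockout (KO) and control (C) kidney. Knockout 5 is the lowest knockout for Slco2b1 (8.52) and for the macrophage mean (0.60), but not for Slco2a1 (8.70).

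The remaining Slco genes did not pass. Slco1a6, a kidney member of the Slco1 group, ranged over 10.59 to 11.41 in the knockouts, against 10.68 to 11.33 in the controls, with a log2 difference of 0.17 (adjusted p = 0.543). Slco3a1, a broadly expressed carrier of prostaglandins and thyroid hormone, had a log2 difference of 0.05 (adjusted p = 0.744). The 6 Slco1 genes had a median of -0.04. The 3 Slco6 genes, known from testis, were all below the median of the negative controls.

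Among efflux pumps, Abcc3 showed the largest difference above 0 of the 66 genes. It encodes MRP3, a basolateral pump for glucuronide and bile acid conjugates (chr11:94343295-94393017). It measured 7.53, 7.89, 7.82, 7.54 and 7.59 in the knockouts, against 6.81, 6.85, 6.68, 7.42 and 6.55 in the controls. All knockouts lay above all controls, and control 4 stood apart from the other 4 controls near the knockouts. The log2 difference was 0.81 (SE 0.14, adjusted p = 0.00405), with the knockout at 175% of the control level (95% interval 143% to 216%). It was 0.95 without control 4, and the call held under each of the 19 alternatives. Of 7 measured urothelium markers, 4 rose in the knockout, among them Upk1b (1.39), and their mean was 0.31 to 0.73 in the knockouts, against -0.52 to 0.46 in the controls. Control 4 was the highest control for both, and the part of urothelium in the Abcc3 values was not tested.

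Abcc1 encodes MRP1, a pump for glutathione conjugates (chr16:14361453-14474878). It measured 7.82, 7.88, 7.81, 7.76 and 7.89 in the knockouts, against 8.08, 8.07, 8.05, 8.11 and 7.83 in the controls. Control 5 lay among the knockouts, below the other 4 controls. Abcc1 differed by -0.20 on the log2 scale (SE 0.06, adjusted p = 0.0474), with the knockout at 87.3% of the control level. The call was lost under 12 of the 19 alternatives, including those without control 1, 2, 3 or 4 or knockout 1, 2, 3 or 4, with an adjusted p of up to 0.105.

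The other pumps of conjugates and drugs did not pass. Abcc2 (MRP2), the brush border pump for conjugates, had a log2 difference of -0.13 (adjusted p = 0.547). Abcc5 (MRP5), a pump for cyclic nucleotides, had a log2 difference of 0.01 (adjusted p = 0.912). Abcg2 (BCRP), a brush border pump for urate and drugs, measured 10.55, 10.51, 10.52, 10.62 and 10.64 in the knockouts, against 10.68, 10.67, 10.63, 10.64 and 10.70 in the controls. Knockouts 1 to 4 lay below all controls and knockout 5 among them, with a log2 difference of -0.10 (SE 0.04, adjusted p = 0.146). Of the 19 alternatives, quantile normalization alone made the call. Over the 12 multidrug pumps of the 3 ABC families, 1 rose, 1 fell and the median log2 difference was -0.11.

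The pair Abcb1a and Abcb1b, which encode the 2 P-glycoproteins of the mouse, differed more within the groups than between them. Abcb1b measured 7.52, 7.48, 7.36, 7.47 and 9.07 in the knockouts, against 8.59, 7.17, 8.59, 8.02 and 8.94 in the controls. Abcb1a measured 7.28, 7.21, 7.18, 7.21 and 8.08 in the knockouts, against 7.79, 7.05, 7.78, 7.82 and 8.07 in the controls. Knockout 5 was as high as the highest control for both, and control 2 was lower than every knockout for both. The log2 differences were -0.49 (SE 0.36, adjusted p = 0.447) for Abcb1b and -0.31 (SE 0.20, adjusted p = 0.378) for Abcb1a. Without knockout 5 they were -0.81 and -0.48 and still did not pass (adjusted p = 0.0866 and 0.0725). Knockout 5 was also the highest knockout for Abcc2, at 11.69, against 11.13 to 11.26 in the other knockouts.

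**Figure D5:**
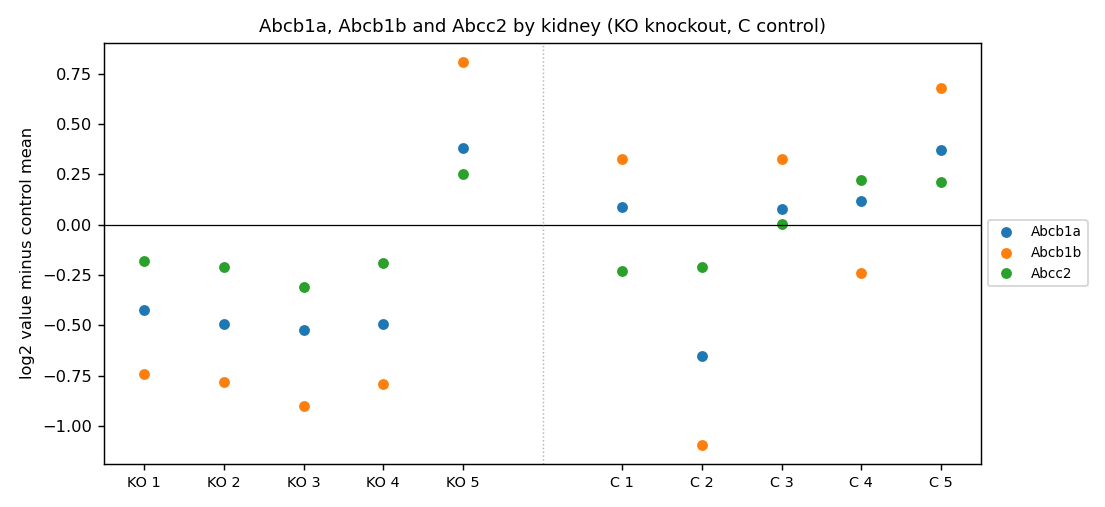
The log2 value minus the control mean (vertical axis) of Abcb1a, Abcb1b and Abcc2 in each knockout (KO) and control (C) kidney. Knockouts 1 to 4 lie close together below the control mean, while knockout 5 lies above it and control 2 lies below it for all 3 genes.

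Of the 4 measured Abcb genes that serve mitochondria or lysosomes, 2 fell, and the median of the 4 log2 differences was -0.20. Abcb8 encodes an inner mitochondrial membrane transporter (chr5:24393681-24412759). It measured 7.58, 7.63, 7.49, 7.61 and 7.94 in the knockouts, against 8.04, 7.89, 7.93, 7.88 and 7.88 in the controls. Knockout 5 lay among the controls and the other 4 knockouts below all of them. The log2 difference was -0.28 (SE 0.07, adjusted p = 0.0397), with the knockout at 82.6% of the control level. Without knockout 5 the adjusted p was 0.000837. The call was lost under 11 alternatives, among them those without any one of the 5 controls or knockouts 1 to 4, with an adjusted p of up to 0.0951.

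Abcb10, which acts in mitochondrial haem synthesis (chr8:123952459-123983122), measured 7.60, 7.62, 7.48, 7.68 and 7.79 in the knockouts, against 7.95, 7.88, 7.87, 7.78 and 7.75 in the controls. Knockout 5 overlapped controls 4 and 5. Abcb10 differed by -0.21 on the log2 scale (SE 0.06, adjusted p = 0.0481), with the knockout at 86.3% of the control level. The call was lost under 11 alternatives, among them those without control 1, 2, 3 or 4 or knockout 1, 2, 3 or 4, with an adjusted p of up to 0.108. Abcb6, a porphyrin transporter, had a log2 difference of -0.19 (adjusted p = 0.0909), and it passed without knockout 5. Abcb9, a lysosomal peptide transporter, had 6.81 to 6.91 in the knockouts, against 6.94 to 7.10 in the controls, and its log2 difference of -0.14 did not pass (adjusted p = 0.0787). Of the 19 alternatives, Abcb9 passed after quantile normalization alone (adjusted p = 0.0359).

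Abcc9 encodes SUR2, a regulatory subunit of ATP-sensitive potassium channels. It measured 8.0, 8.09, 8.07, 8.28 and 8.23 in the knockouts, against 8.39, 8.27, 8.49, 8.24 and 8.41 in the controls. The log2 difference of -0.22 (SE 0.06) lay just outside the threshold (adjusted p = 0.0541), and it passed under 5 of the 19 alternatives, including those without control 4, knockout 4 or knockout 5. The 6 bile salt, phospholipid and sterol transporters had no call and a median of -0.08. Among them were the sterol transporters Abcg1 (log2 difference 0.01, adjusted p = 0.969), Abcg4 (-0.05), Abcg5 (-0.09) and Abcg8 (-0.10).

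Other genes of renal drug handling were described from lists of carriers, regulators and enzymes. Over all genes, 5.35% passed as higher and 2.67% as lower, with a median log2 difference of -0.03. The list medians below lay near it. Of 25 other drug and solute carriers, 1 rose and 3 fell, with a median log2 difference of -0.05. The sulfate carrier Slc13a1 rose (0.32, adjusted p = 0.0119). The dicarboxylate carrier Slc13a3, which feeds the exchange for organic anions, fell (-0.42, adjusted p = 0.000222), as did the peptide carrier Slc15a1 (-0.22) and the steroid carrier subunit Slc51b (-0.21). Of 19 measured regulators and scaffolds, 1 rose and 2 fell, with a median of -0.05. Pdzk1, a scaffold that binds URAT1 and other brush border carriers, fell by 0.27 on the log2 scale (adjusted p = 0.0174). Shank2, another scaffold, had a difference of -0.40, and the transcription factor Foxa1 rose (0.72, adjusted p = 0.00265).

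Of 30 measured conjugation and oxidation enzymes, 4 rose (13.3%) and 2 fell (6.67%), with a median of -0.04. Over all genes, 5.35% rose and 2.67% fell. The 4 that rose were Gstp1 (0.55), Mgst1 (0.44), Gstm1 (0.37) and Gstm3 (0.33), as log2 differences. They are glutathione transferases, and the other 5 of that kind on the list, Gsta2 (0.26), Gsta3 (0.24), Gsta4 (0.21), Gstt1 (0.06) and Gstt2 (-0.03), did not pass. Those that fell were Ugt2b38, a glucuronosyltransferase (-1.08, adjusted p = 0.0119), and Fmo1, a flavin monooxygenase (-0.53, adjusted p = 0.00160). Of 26 measured ABC genes of other families, 1 rose (Abca8a, 0.45) and 3 fell (Abca4, -0.52; Abca5, -0.29; Abca2, -0.17), with a median of -0.03.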

How the data were processed

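The values the authors deposited are log2 expression levels, 1 per transcript cluster. They come from RMA with the mm10 build, per the submitters' processing notes. Software versions and filtering steps were not given in the sources used here. The deposited arrays still differed slightly in their medians. RNA (500 ng per kidney) was made into labelled sense cDNA, per the labels' protocols. Arrays give no read depth, and precision is limited by their number.

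Of 72688 rows, 30604 named 1 gene in the platform annotation, 2146 several and 39938 none. Only the first were used. Symbols of 827 rows were updated through Entrez identifiers (Slc22a13b among the members), and rows of 1 gene were averaged (355 genes had several). Coordinates and promoter windows are from RefSeq, GRCm38.p6.

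Knockouts and controls were compared with limma 3.58.1 in R 4.3.3 (lmFit, eBayes with trend), two-sided, with Benjamini-Hochberg adjustment over all genes and a threshold of 0.05, no filter and no covariate. The fit was tested on simulated data. Tables were made with Python 3.11.15. The members and all gene lists were chosen with earlier results of these data known. Genes were named by a rule that took the members past the threshold, the 4 brightest of each family, the 2 of smallest p in a family with no call, and up to 4 list genes past the threshold. Replicate numbers were not taken to pair the kidneys, since no label ties a number to a litter or day. Same-numbered kidneys did not all deviate together, but 7 of 10 kidneys correlated best with their own number. Whether the numbers pair the kidneys is thus not settled. Alternatives were quantile normalization, median scaling, leaving out dim genes, no trend, robust variances, array weights, the brightest row, platform symbols, a replicate block and leaving out each kidney.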

Additional observations from a re-analysis of the deposited data

Results flagged for a closer look

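In each group of 5 kidneys, the highest or lowest kidney was compared with the rest by Dixon's test (critical value 0.71). Of 132 groups, 15 held a kidney that stood apart, where a nominal rate of 1 in 20 gives 6.6. The rate over all genes was not measured. The groups are not separate events, since near copies such as Abcb1a and Abcb1b can share signal, so no excess is read from these counts. Knockout kidney 5 accounted for 6 of them. It was high for Abcb1a (8.08, against 7.18 to 7.28 in the other knockouts), Abcb1b (9.07, against 7.36 to 7.52), Abcc2 (11.69, against 11.13 to 11.26) and Slco6b1 (3.35, against 3.25 to 3.28). It was low for Slc22a19 (10.91, against 11.07 to 11.12) and Slco4a1 (6.88, against 7.01 to 7.07). Knockout 4 was low for Slc22a15 (6.15, against 6.28 to 6.33), and knockout 1 was high for Abcg3 (4.49, against 4.29 to 4.33).

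Control kidney 2 was low for Abcb1a (7.05, against 7.78 to 8.07 in the other controls) and Slco1b2 (3.16, against 3.26 to 3.30), and high for Slco1a5 (5.29, against 4.96 to 5.00). Control 1 was high for Slc22a2 (11.9, against 11.52 to 11.62), Slc47a1 (12.29, against 12.09 to 12.13) and Abcg3 (4.49, against 4.23 to 4.29). Control 5 was low for Abcc1 (7.83, against 8.05 to 8.11). Control 4 was not flagged by this test for any gene. Abcg3, Slco1a5, Slco1b2 and Slco6b1 have means below the median of the negative controls.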

How the results depend on the processing

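Of the 10 transporters past the threshold, Abcc3, Slco2b1, Slc22a22, Slc22a4, Slc22a12 and Slc47a1 passed in the same direction under all 19 alternatives, while Slco2a1 lost its call under 5, Abcb8 and Abcb10 under 11 each and Abcc1 under 12. The count of lower transporters (7) was 4 after median scaling and 4 with a replicate block, and 4 to 11 when 1 kidney was left out (11 without knockout 5). Quantile normalization gave 2 higher and 10 lower, and moved the share of increases among all calls to 55.5%, against 66.7% (56.9% without knockout 5). With 1 kidney left out, the counts were 3 to 6 lower Slc22a (6 without control 4), 1 to 2 higher and 0 to 2 lower Slco, 0 to 3 lower Abcb, and 1 to 2 higher and 0 to 4 lower Abcc (4 without knockout 5). Lower Abcb genes were 0 after median scaling, 1 without the trend and 0 with the replicate block. Lower Abcc genes were 2 after quantile normalization, 0 after median scaling, 2 with dim genes left out, 0 without the trend, 0 with array weights and 0 with the replicate block. After quantile normalization there were 1 higher Slco and 1 lower Abcg gene. The Slco median turned from -0.022 to 0.02 after quantile normalization and to 0.109 with dim genes left out, which removes 7 of its 15 genes. Otherwise, the causes of these changes were not tested.

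The differences that changed sign belonged to genes near 0. After quantile normalization they were Abcc5 (-0.001), Abcg1 (-0.005), Abcb5 (0.028), Slc22a16 (0.031), Slc22a19 (-0.042), Slco1c1 (0.02) and Slco5a1 (0.038), and with array weights Slc22a16 (0.001) and Slco5a1 (0.011). With 1 kidney left out, Abcc5 ran between -0.024 and 0.03, Abcg1 between -0.075 and 0.085, Abcb5 between -0.017 and 0.0, Slc22a15 between -0.054 and 0.003, Slc22a16 between -0.032 and 0.043, Slc22a19 between -0.086 and 0.099, Slco3a1 between -0.006 and 0.108, and Slco5a1 between -0.018 and 0.028. The replicate numbers were not treated as a pairing, since no label ties them to a litter or day. The deviations of same-numbered kidneys correlated at 0.25, 0.312, 0.103, -0.078 and 0.194. Of 10 kidneys, 7 correlated best with their own number, so whether the numbers pair the kidneys is not settled. With the replicate block, 1826 genes were higher and 955 lower over all genes, against 1614 and 806 without it. It gave 3 higher and 4 lower transporters, without Abcb8, Abcb10 and Abcc1 (adjusted p = 0.0556, 0.0866 and 0.0775). Signal over background limits 13 genes, whose means do not exceed the median of the negative controls.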
